A study of Gallus gallus with 6 samples.

Results

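Genes of tight junctions, gap junctions and desmosomes, with the keratins that desmosomes anchor, were followed along the cochlear duct of the chicken embryo. The members were the 52 of 17684 genes whose names match claudins (CLDN), connexins (GJ), pannexins (PANX), zonula occludens proteins (TJP), MARVEL proteins, junctional adhesion molecules (JAM), desmogleins and desmocollins (DSG, DSC), plakophilins (PKP), desmoplakin (DSP), cingulin (CGN), keratins (KRT) or EPCAM. They comprised 23 tight junction genes, 12 gap junction and pannexin genes, 7 desmosome genes, 9 keratins and EPCAM. The rule also names OCLN, JUP, F11R, MARVELD1 and MARVELD2, which were not analysed here, nor was GJB2.

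Ducts of Gallus gallus embryos at embryonic day 6.5 were cut into a distal, a middle and a proximal piece, and the pieces of each region were pooled before RNA extraction, over a number of ducts that the labels do not state. The labels name no treatment, strain or genotype. Each piece held prospective basilar papilla (the hearing epithelium) and prospective tegmentum vasculosum (a secretory epithelium), and the distal piece also held the prospective lagena, the macular organ at the tip. There were 6 libraries, 2 biological replicates per region, and the column names place 1 library of each region in a first and 1 in a second set. Values are RPKM, reads scaled by gene length and by library depth, as deposited by the authors. Pairs of values below give the first set and then the second.

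Epithelia of the inner ear separate fluids of different ionic composition. Claudins form the strands of tight junctions and set which ions pass between cells, and the zonula occludens scaffold proteins tie them to actin. Connexins form gap junctions, through which ions and small metabolites pass between supporting cells. In mammals, mutations of the connexin genes GJB2 and GJB6 and of CLDN14 cause deafness. Desmosomes join cells mechanically: desmogleins and desmocollins bridge the gap, plakophilins and desmoplakin link them to keratin filaments.

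The libraries held 9262860, 23537713 and 14489623 alignments in the first set (distal, middle, proximal) and 56103107, 66072315 and 73918748 in the second. RPKM summed over all genes was 757443, 763039 and 822531 in the first set and 480760, 490156 and 482890 in the second. RPKM values of the sets therefore do not share a common total. The first-set proximal library stood apart, since its log2 values correlated (Pearson) across genes with the distal and middle libraries of its set at 0.918 and 0.948, against 0.976 between those 2 libraries. In the second set the same 3 pairs gave 0.965, 0.984 and 0.973. Genes are not independent in these correlations. The duct epithelium was present in every piece: OC90, an otoconial protein gene of the duct, measured 1153 and 967 RPKM in the distal, 821 and 723 in the middle and 414 and 591 in the proximal libraries. Its 12 listed epithelial markers summed to 1823 and 1711 RPKM in the distal, 1511 and 1515 in the middle and 1097 and 1323 in the proximal libraries. OC90 was the largest single part of that sum in every library. It exceeded the other 11 together in the distal and the first-set middle libraries, but not in the proximal and the second-set middle libraries. The other 11 markers summed to 670 and 745 RPKM in the distal, 690 and 792 in the middle and 683 and 732 in the proximal libraries, with ATP1B1 and PAX2 lower distally than proximally in both sets. The 10 neuron markers in the table summed to 454 and 443, 1073 and 1167, and 1155 and 986 RPKM in the same order. Red blood cell markers summed to 1591 and 1235 RPKM in the distal, 2239 and 1468 in the middle and 5708 and 2778 in the proximal libraries. In such bulk samples fewer cells of a type and less RNA per cell cannot be told apart, and the part of cell make-up in the differences below was not tested.

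Of the 52 members, 36 reached 1 RPKM in at least 2 libraries and were tested, and 32 reached it in all 6 libraries. The 36 comprised 15 tight junction genes, 10 gap junction and pannexin genes, 6 desmosome genes, 4 keratins and EPCAM. Of the 4 tested members under 1 RPKM in some library, DSC2 reached it in no proximal library and GJA5 in no distal library, so counts over the tested members do not describe all 52. The 16 members not tested included CLDN2 and CLDN18, listed at 0 in every library.

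**Figure D1:**
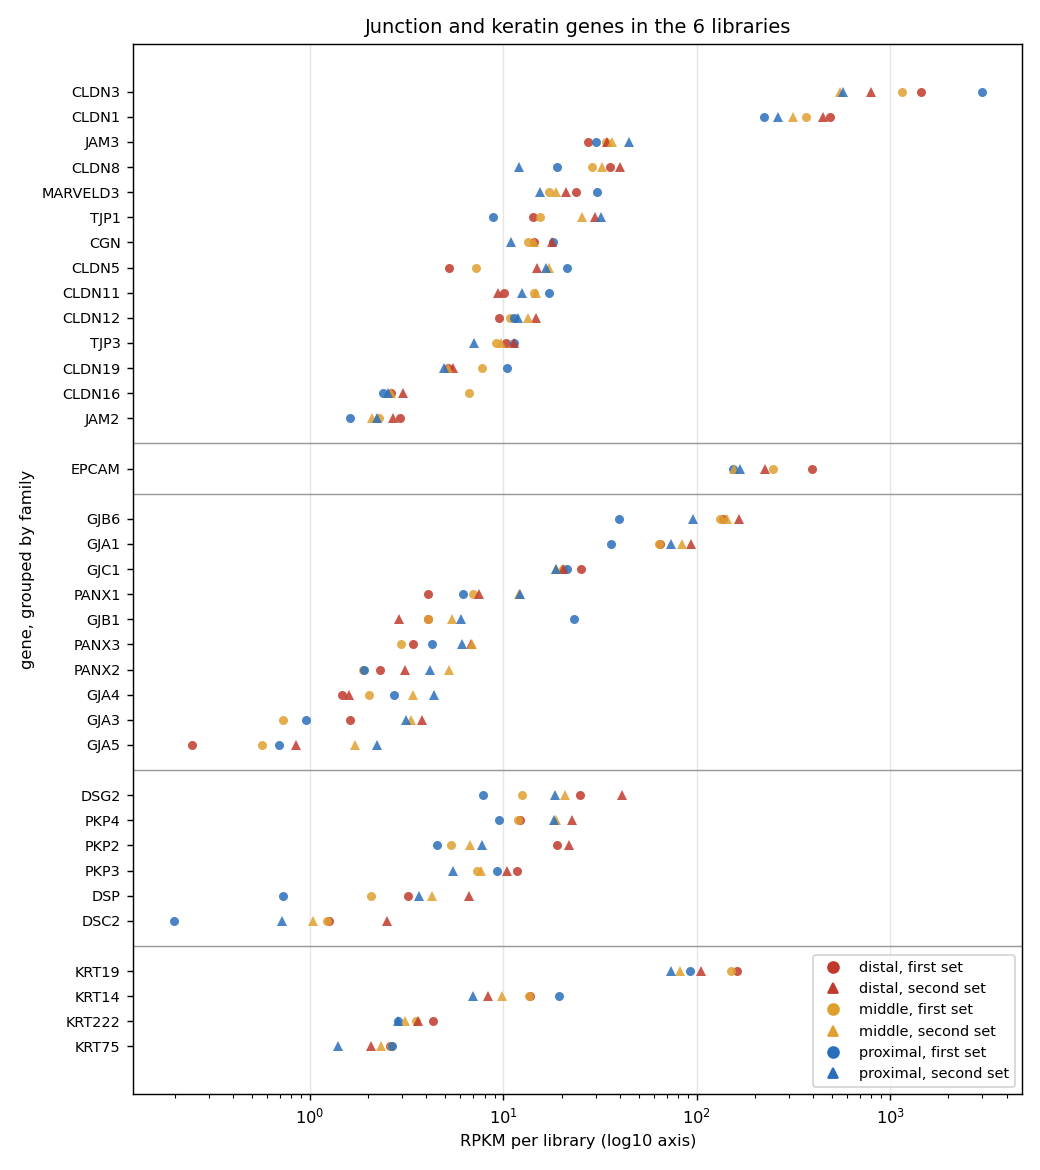
RPKM of the tested members, 1 of them not shown, in each of the 6 libraries on a log10 axis, 1 row per gene, grouped by family and ordered by mean RPKM; circles are the first set, triangles the second, and colour gives the region. CLDN3, CLDN1, EPCAM, GJB6 and KRT19 lie far to the right, and the distal points of PKP2 (19.0 and 21.8 RPKM) lie clear of its other 4 points.

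All 6 tested desmosome genes were higher in distal than in proximal pieces in both sets, and also higher than in middle pieces in both sets. Of the other families, 5 of 15 tight junction genes, 4 of 10 gap junction genes and 2 of 4 keratins were higher distally than proximally in both sets. Over all 36 tested members 18 were higher and 7 lower in both sets, where 33.3% and 24.7% of the 12559 tested genes were. Against the middle piece 21 were higher and 8 lower, where 39.9% and 30.6% of tested genes were. A log2 difference of at least 1 in both sets was reached by PKP2 and DSG2 against the proximal piece (1.16% of tested genes) and by PKP2 against the middle piece (0.422%), and 0 members were lower by as much (1.92% and 1.23%). The median log2 difference of the 6 between distal and proximal was 0.99, against 0.10 over all tested genes. DSC2 passed the filter through its distal and middle libraries alone, which limits what it adds to that median and to the count of 6. GJA5, among the members lower distally in both sets, passed through its middle and proximal libraries alone. Differences are on the log2(RPKM + 1) scale, with the pseudocount of 1 understating those of low genes.

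PKP2, a plakophilin of simple epithelia and heart muscle, measured 19.0 and 21.8 RPKM in the distal libraries, 5.36 and 6.72 in the middle libraries and 4.56 and 7.77 in the proximal libraries. The distal libraries lay apart from all others, and the middle and proximal libraries overlapped. Mean RPKM was 20.4 ± 1.96 in the distal, 6.04 ± 0.961 in the middle and 6.17 ± 2.27 in the proximal piece (SD, n = 2 each). The distal mean was 3.38 times the middle one and 3.31 times the proximal one. The log2 difference was 1.61 ± 0.23 against both the middle and the proximal piece, and 0.00 ± 0.23 between middle and proximal (SE with the set fitted as a replicate block). In limma the distal-to-proximal difference had an adjusted p of 0.774 without the block and 0.0627 with it. With 1 library left out the difference against the proximal piece lay at 1.28 to 1.94. The adjusted p was 0.0314 with the block after quantile normalization, the one setting in which any member was called.

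DSG2, the desmoglein of simple epithelia, measured 24.9 and 40.9 RPKM in the distal, 12.4 and 20.8 in the middle and 7.87 and 18.4 in the proximal libraries. Both sets ran in the same order, with the distal libraries above all others and the middle and proximal ranges overlapping. The log2 difference was 1.33 ± 0.22 for distal against proximal, 0.94 ± 0.22 for distal against middle and 0.38 ± 0.22 for middle against proximal. The limma adjusted p of the first was 0.9997 without the block and 0.0774 with it, and 0.0411 with the block and quantile normalization. The distal-to-proximal value was 0.76 without the first-set and 1.89 without the second-set proximal library, and the middle-to-proximal value was -0.18 and 0.95 in the same settings. The distal-to-middle value lay at 0.59 to 1.29 with 1 library left out.

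DSP, which encodes desmoplakin, measured 3.21 and 6.67 RPKM in the distal, 2.07 and 4.26 in the middle and 0.723 and 3.64 in the proximal libraries. DSC2, a desmocollin gene, measured 1.26 and 2.49, 1.22 and 1.04, and 0.197 and 0.719 RPKM in the distal, middle and proximal libraries. Each set ran in the order distal, middle, proximal for both genes, but the ranges of DSP overlapped between regions because its second-set values were higher throughout. Differences between distal and proximal were 1.01 ± 0.26 for DSP and 0.97 ± 0.27 for DSC2, with limma adjusted p of 0.167 and 0.191 with the block. DSP had 0.29 without the first-set and 1.72 without the second-set proximal library, and DSC2 lay at 0.65 to 1.28 with 1 library left out. Against the middle piece the values were 0.50 ± 0.26 for DSP and 0.40 ± 0.27 for DSC2, and they were 0.065 and 0.087 with the second-set distal library left out. RefSeq lists the name DSC2 neither as a symbol nor as a synonym, so which gene carries the DSC2 reads is uncertain.

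The remaining plakophilins differed less. PKP3, an epithelial plakophilin, measured 11.8 and 10.4 RPKM in the distal, 7.33 and 7.65 in the middle and 9.26 and 5.52 in the proximal libraries. Both distal libraries lay above the other 4. Its difference was 0.56 ± 0.26 against the proximal (0.89 without the first-set and 0.24 without the second-set proximal library) and 0.51 ± 0.26 against the middle piece. PKP4, which also binds classical cadherins, measured 12.1 and 22.5, 12.0 and 18.6, and 9.53 and 18.2 RPKM in the distal, middle and proximal libraries. Its sets lay further apart than its regions, with 0.30 ± 0.21 between distal and proximal, -0.13 without the first-set and 0.74 without the second-set proximal library. PKP1, a plakophilin of stratified epithelia, stayed between 0 and 0.0861 RPKM.

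**Figure D2:**
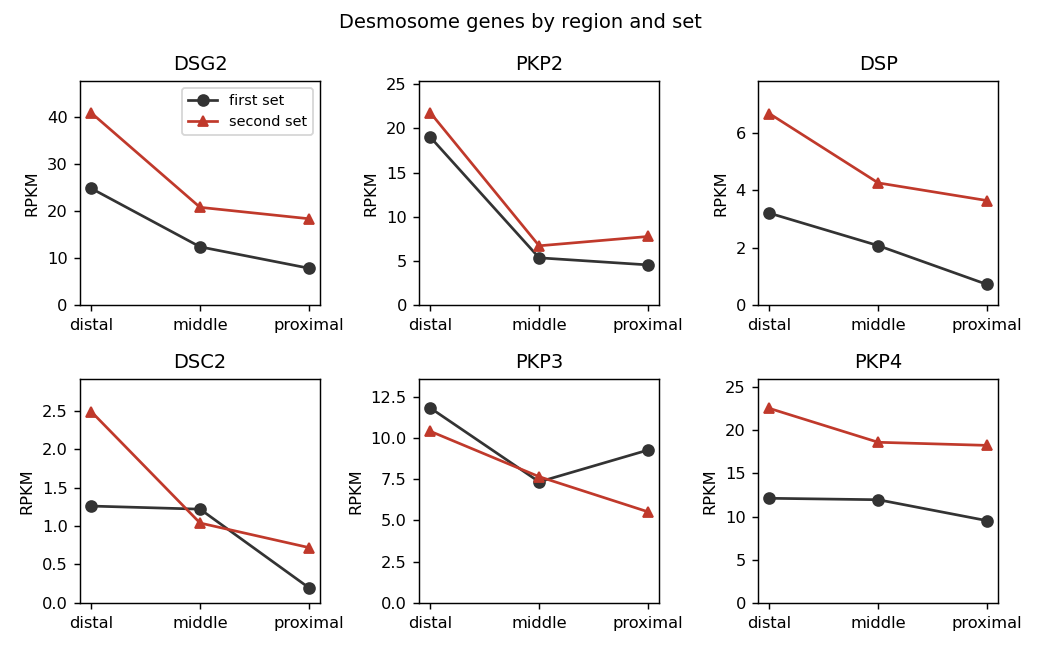
RPKM of the 6 tested desmosome genes in the distal, middle and proximal libraries, with 1 line per set and linear axes from 0. In DSG2, DSP, DSC2 and PKP4 both lines descend from distal to proximal, and PKP2 has 19.0 and 21.8 RPKM in the distal piece, against 5.36 and 6.72 RPKM in the middle piece.

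Heart and skeletal muscle and epidermis also carry desmosomal or plakin proteins. The 7 muscle markers summed to 13.6 and 12.8 RPKM in the distal, 10.8 and 10.9 in the middle and 17.2 and 9.32 in the proximal libraries. DES and ACTC1, both lower distally than proximally in both sets, made up much of that sum. The other 5 summed to 7.57 and 7.71 RPKM in the distal, 4.48 and 4.67 in the middle and 1.16 and 3.53 in the proximal libraries. That sum was highest distally in both sets, but not every gene in it was. MYL1 was highest in the middle library of the first set, and MYOD1 was not highest distally in any set. TNNT2, a cardiac troponin gene, measured 3.50 and 1.62, 0.733 and 0.449, and 0 and 0.155 RPKM in the same order. Of the 5 muscle markers tested, TNNT2, MYL1 and MYH11 were higher distally than proximally in both sets and 2 were lower, with a median difference of 0.76. Of the epidermis markers in the table, 4 are no junction members (EVPL, PERP, TP63 and GRHL3). They summed to 23.7 and 26.3, 19.3 and 18.9, and 19.0 and 17.3 RPKM in the same order, so these distal sums were the highest. The list also holds KRT14 and KRT75, which were left out of the sums as members. Both keratins were highest proximally in the first set and in the middle piece in the second. KRT14 measured 13.8 and 8.35, 13.6 and 9.86, and 19.3 and 7.0 RPKM in that order of regions. No marker of either list was at 0 in all libraries, and their part in the desmosome values was not tested.

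Claudin RPKM was dominated by CLDN3 and CLDN1, both of which seal epithelia against ions. CLDN3 measured 1447 and 792 RPKM in the distal, 1149 and 550 in the middle and 2985 and 571 in the proximal libraries. The first set was higher throughout, and the proximal values were the highest of the first set but next to the lowest of the second. RPKM summed over all genes was also higher in the first set. Its distal-to-proximal difference was -0.29 ± 0.41, 0.91 without the first-set and -1.48 without the second-set proximal library. CLDN3 made up 72.1% and 59.6% of summed claudin RPKM in the distal, 72.0% and 57.7% in the middle and 90.7% and 63.7% in the proximal libraries.

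CLDN1 measured 491 and 447 RPKM in the distal, 369 and 315 in the middle and 222 and 263 in the proximal libraries. The 3 regions did not overlap, and each set ran in the order distal, middle, proximal. The difference was 0.95 ± 0.22 for distal against proximal, 0.46 ± 0.22 for distal against middle and 0.49 ± 0.22 for middle against proximal. In limma the first had an adjusted p of 0.134 with the block and 0.9997 without it. Its protein-coding neighbour in RefSeq (GRCg7b) is CLDN16, which measured 2.38 to 6.65 RPKM across the libraries, far below CLDN1 on the same per-length scale. The 6.65 RPKM of the first-set middle library stood above the other 5, which reached 3.03.

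CLDN8, a claudin of tight, ion-sealing epithelia, measured 35.5 and 40.2 RPKM in the distal, 28.8 and 32.4 in the middle and 19.0 and 12.1 in the proximal libraries. The 3 regions again did not overlap. The distal mean of 37.8 ± 3.35 RPKM was 2.43 times the proximal mean of 15.6 ± 4.90 (SD, n = 2 each). Its differences were 1.26 ± 0.27 for distal against proximal, 0.30 ± 0.27 for distal against middle and 0.96 ± 0.27 for middle against proximal. The limma adjusted p for the distal and proximal pieces was 0.828 without the block and 0.115 with it. The difference was 1.56 without the first-set and 0.95 without the second-set proximal library.

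CLDN11 and CLDN5 lay on the other side. CLDN11, the claudin of myelin and of the basal cells of the mammalian stria vascularis, measured 10.1 and 9.42 RPKM in the distal, 14.5 and 14.7 in the middle and 17.2 and 12.6 in the proximal libraries. Both distal libraries lay below the other 4, with -0.55 ± 0.22 against the proximal (-0.33 without the first-set and -0.76 without the second-set proximal library) and -0.53 ± 0.22 against the middle piece. CLDN5, the main claudin of blood vessels, measured 5.26 and 14.9, 7.23 and 17.1, and 21.4 and 16.7 RPKM in the distal, middle and proximal libraries. Both distal libraries lay below both proximal ones. The distal-to-proximal difference of -1.0 ± 0.43 came mostly from the first set (-1.84, against -0.16 in the second), and it was -0.33 without the first-set distal library and -1.67 when that of the second set was left out. The 11 endothelial markers in the table summed to 68.9 and 70.3 RPKM in the distal, 59.3 and 71.2 in the middle and 74.6 and 71.6 in the proximal libraries. Of the 10 tested, 1 was higher and 4 were lower distally than proximally in both sets (33.3% and 24.7% of all tested genes were), and their part in CLDN5 was not tested.

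The other claudins had lower mean RPKM than CLDN11 and CLDN5. CLDN12 and CLDN19 averaged 11.9 and 6.51 RPKM with overlapping regions, and CLDN10, CLDN15, CLDN20, CLDN22 and CLDN23 stayed under 1 RPKM in every library. CLDN14, which hair cells and supporting cells of the mammalian cochlea use, was listed at 0 in 5 libraries and at 0.0525 RPKM in the second-set distal library. One read per kilobase of gene was worth 0.0178 RPKM in that library and 0.108 RPKM in the first-set distal library, so low levels were less resolved in the first set.

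**Figure D3:**
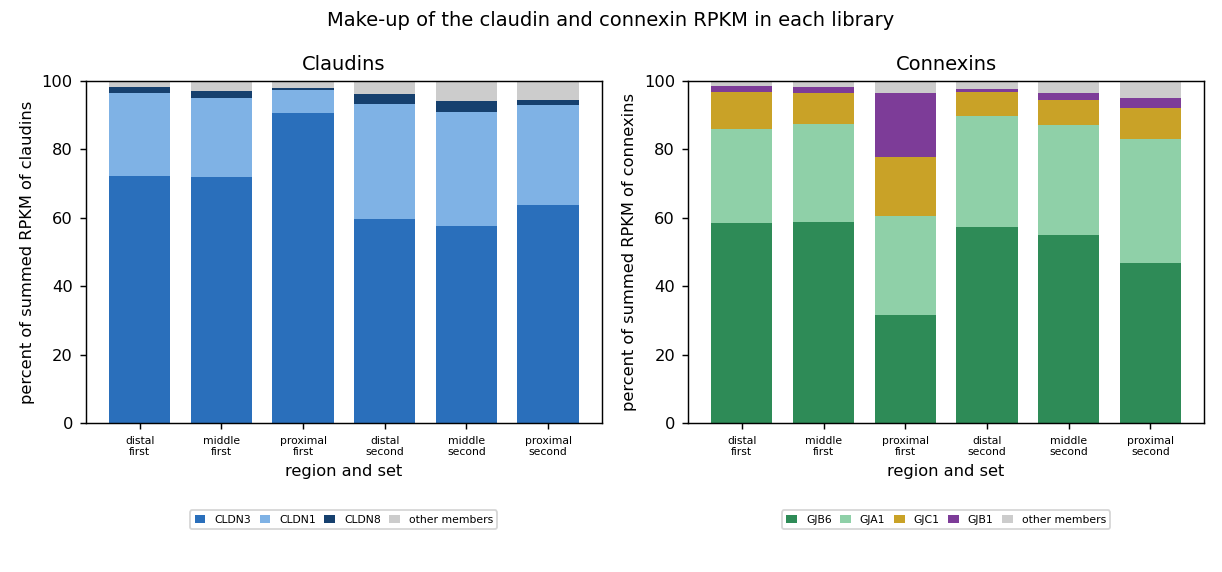
Share of each gene in the summed RPKM of 16 claudins (left) and 9 connexins (right), 1 bar per library with the first set left of the second and distal, middle and proximal in each set. In the first-set proximal library CLDN3 takes 90.7% of claudin RPKM and GJB1 18.7% of connexin RPKM, against at most 72.1% and 2.95% in the other 5.

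Scaffold and other membrane proteins of the tight junction were expressed throughout, with small regional differences. TJP1, a zonula occludens scaffold protein gene, measured 14.2 and 29.8 RPKM in the distal, 15.5 and 25.4 in the middle and 8.79 and 31.9 in the proximal libraries, and its sets differed more than its regions. CGN, TJP3 and MARVELD3 averaged 14.9, 9.82 and 21.1 RPKM. All 3 genes were higher in both distal than in both middle libraries, and their distal and proximal ranges overlapped. JAM3, a junctional adhesion molecule, measured 27.3 and 34.4, 33.9 and 36.5, and 30.3 and 44.7 RPKM in the distal, middle and proximal libraries, a distal-to-proximal difference of -0.26 ± 0.21 that was -0.53 without the first-set and 0.016 without the second-set proximal library. JAM2 was lower, at 1.61 to 2.91 RPKM.

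EPCAM, an epithelial adhesion protein that binds claudins, measured 396 and 226 RPKM in the distal, 247 and 155 in the middle and 153 and 167 in the proximal libraries. Both distal libraries lay above both proximal ones. The difference between those pieces was 0.90 ± 0.28, with a limma adjusted p of 0.243 with the block. It was 1.36 in the first and 0.43 in the second set, and it was 0.49 without the first-set distal library.

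GJB6 and GJA1 carried most connexin RPKM. GJB6 (connexin 30), a connexin of cochlear supporting cells, measured 137 and 165 RPKM in the distal, 131 and 143 in the middle and 39.5 and 95.5 in the proximal libraries. The proximal libraries lay below the other 4, and the distal and middle ranges overlapped. Differences were 1.28 ± 0.32 for distal against proximal, 1.15 ± 0.32 for middle against proximal and 0.13 ± 0.32 for distal against middle. The limma adjusted p of the first was 0.149 with the block and 0.9997 without it. The first was 0.65 without the first-set and 1.91 without the second-set proximal library, and the second was 0.52 and 1.77 in the same settings. The 10 prosensory and supporting cell markers in the table summed to 402 and 657 RPKM in the distal, 391 and 563 in the middle and 339 and 419 in the proximal libraries. Of these markers, 7 were higher and 1, HES5 (-1.10 ± 0.22), was lower distally than proximally in both sets (33.3% and 24.7% of all tested genes were). Their part in GJB6 was not tested.

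GJA1 (connexin 43) measured 64.9 and 93.4 RPKM in the distal, 63.8 and 83.5 in the middle and 36.1 and 73.7 in the proximal libraries. Both sets ran in the order distal, middle, proximal, but the sets lay further apart than the regions. Its distal-to-proximal difference was 0.58 ± 0.23, 0.078 without the first-set and 1.09 without the second-set proximal library. GJC1 measured 25.1 and 20.3, 20.4 and 18.8, and 21.3 and 18.7 RPKM, with overlapping regions and a difference of 0.17 ± 0.20. RefSeq lists the name GJC1 as a synonym of another gene, so which gene carries these reads is uncertain. GJB6 and GJA1 held 58.5% and 27.6% of connexin RPKM in the first-set distal library, 57.3% and 32.4% in the second-set distal library and 46.8% and 36.1% in the second-set proximal library. In the first-set proximal library the shares were 31.7% and 29.0%.

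GJB1, GJA4 and GJA5, connexins known from glia or vessels, lay highest in the proximal library of each set. GJB1 (connexin 32), the connexin of myelinating Schwann cells, measured 4.07 and 2.87 RPKM in the distal, 4.08 and 5.43 in the middle and 23.3 and 6.02 in the proximal libraries. Distal and proximal libraries did not overlap, and the first-set proximal library was far above all others. The difference was -1.56 ± 0.50 for distal against proximal, -1.19 ± 0.50 for middle against proximal and -0.37 ± 0.50 for distal against middle, with a limma adjusted p of 0.248 with the block for the first. The first was -0.66 without the first-set and -2.45 without the second-set proximal library, and the second was -0.30 and -2.09 in the same settings. The third lay at -0.56 to -0.17 with 1 library left out. The 7 glia markers in the table summed to 253 and 310 RPKM in the distal, 509 and 389 in the middle and 555 and 485 in the proximal libraries, and 4 of the 6 tested were lower distally than proximally in both sets (24.7% of all tested genes were). None was at 0 in all libraries. Their part in GJB1 was not tested.

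GJA4 and GJA5 (connexins 37 and 40), connexins of arterial endothelium, ran in the order proximal, middle, distal in both sets. GJA4 measured 1.47 and 1.60 RPKM in the distal, 2.01 and 3.39 in the middle and 2.73 and 4.38 in the proximal libraries. GJA5 measured 0.245 and 0.851, 0.564 and 1.70, and 0.689 and 2.21 RPKM in the same order. Distal and proximal libraries did not overlap for GJA4 and overlapped for GJA5. The distal-to-proximal differences were -0.82 ± 0.24 and -0.62 ± 0.22, with limma adjusted p of 0.217 and 0.295 with the block. GJA5 had -1.08 without the first-set and -0.15 without the second-set proximal library. Without EGFL7 and ESAM, the 2 highest endothelial markers, the sums of the remaining 9 were 17.2 and 27.2 RPKM in the distal, 18.2 and 35.3 in the middle and 19.6 and 44.3 in the proximal libraries. SOX18 and TIE1, an endothelial transcription factor and receptor gene, had distal-to-proximal differences of -1.02 ± 0.29 and -0.65 ± 0.23, the smallest blocked p-values of the list. EGFL7, left out of these sums, had 0.50 ± 0.30. CDH5, KDR, TEK and ERG were higher distally than proximally in the first set and lower in the second. Of the 10 endothelial markers tested, 1 was higher and 4 were lower distally in both sets (33.3% and 24.7% of all tested genes were). The part of vessel content in GJA4 and GJA5 was not tested.

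The pannexins form membrane channels rather than cell-to-cell junctions. PANX1 measured 4.07 and 7.50 RPKM in the distal, 7.0 and 12.0 in the middle and 6.15 and 12.2 in the proximal libraries. In each set the distal library was the lowest, with -0.57 ± 0.22 against the proximal (-1.01 without the first-set and -0.12 without the second-set proximal library) and -0.64 ± 0.22 against the middle piece, but the ranges overlapped between the sets. PANX2 and PANX3 averaged 3.10 and 5.07 RPKM and were split between the sets. GJA3, close to GJB6 in GRCg7b with GJB2 between them, averaged 2.25 RPKM against 119 for GJB6. GJD2, the connexin of electrical synapses, stayed at 0.126 to 0.657 RPKM.

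Keratin RPKM came mainly from KRT19, a keratin of simple epithelia, at 161 and 105 RPKM in the distal, 151 and 81.7 in the middle and 92.0 and 73.6 in the proximal libraries. Both sets ran in the order distal, middle, proximal, and the distal libraries lay above the proximal ones. The difference between those pieces was 0.66 ± 0.22, with a limma adjusted p of 0.264 with the block. Without the first-set distal library the difference was 0.35. KRT14 measured 13.8 and 8.35, 13.6 and 9.86, and 19.3 and 7.0 RPKM in the distal, middle and proximal libraries, with overlapping regions (-0.12 ± 0.29, 0.55 without the first-set and -0.79 without the second-set proximal library). KRT222 measured 4.32 and 3.61, 3.53 and 3.11, and 2.87 and 2.84 RPKM, a distal-to-proximal difference of 0.36 ± 0.22. KRT10, KRT15, KRT20, KRT23 and KRT80 stayed under 1 RPKM. Type I keratins are similar in sequence, and RefSeq lists the names KRT15, KRT19 and KRT20 as synonyms of other genes, so which gene carries these reads is uncertain.

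Relative to EPCAM in the same library, PKP2 and DSG2 were highest distally in both sets, and 4 other genes, CLDN1, CLDN8, KRT19 and GJB6, were not. Nor were the other tested desmosome genes. DSP and DSC2 were highest distally in the second set only. In the first set they stood at 0.810% and 0.318% in the distal and 0.838% and 0.492% in the middle library. PKP3 and PKP4 were highest distally in neither set, with 2.98% and 3.06% in the first-set distal and 6.05% and 6.23% in the first-set proximal library. These ratios were chosen after the values were seen and were not tested. PKP2 stood at 4.80% and 9.66% of EPCAM RPKM in the distal, 2.17% and 4.33% in the middle and 2.98% and 4.65% in the proximal libraries. DSG2 stood at 6.28% and 18.2%, 5.02% and 13.4%, and 5.14% and 11.01% in the same order. CLDN1 stood at 124% and 198%, 149% and 203%, and 145% and 158%, and its sets disagreed on whether distal or proximal was higher. The same held for KRT19 (40.7% and 46.6%, 61.1% and 52.7%, 60.1% and 44.0%) and for CLDN8. GJB6, like CLDN1 and KRT19, was highest in the middle piece in each set. It stood at 34.7% and 73.3% in the distal, 53.1% and 92.6% in the middle and 25.8% and 57.1% in the proximal libraries.

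**Figure D4:**
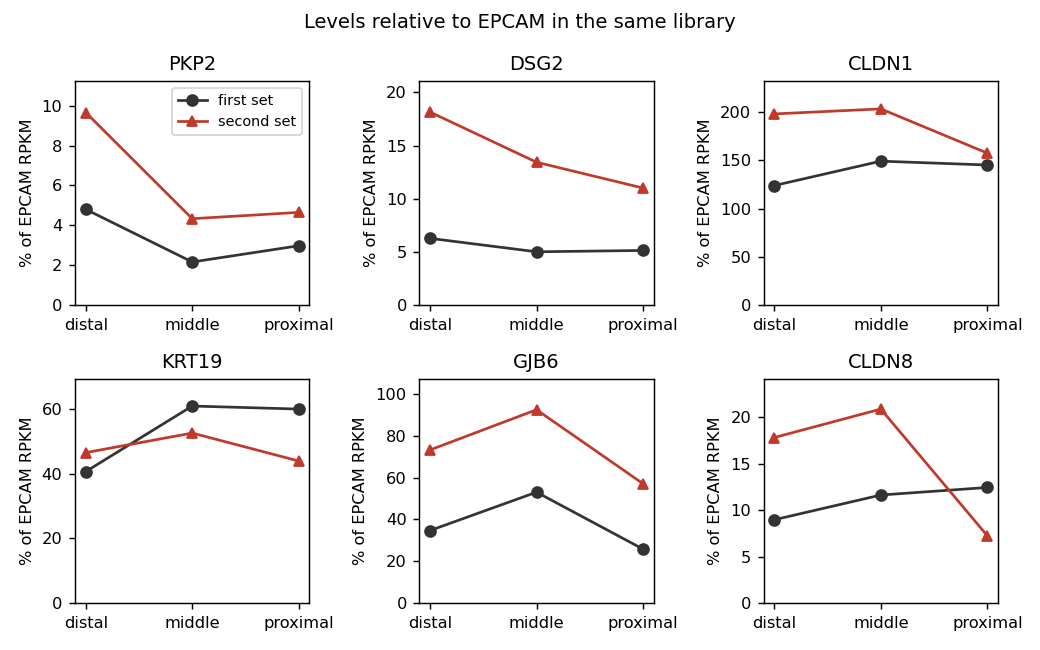
RPKM of 6 genes as a percentage of EPCAM RPKM in the same library, in distal, middle and proximal pieces, with 1 line per set and axes from 0. PKP2 and DSG2 are highest in the distal piece in both lines, and GJB6, CLDN1 and KRT19 are highest in the middle piece in both. For CLDN1, KRT19 and CLDN8 the 2 sets differ on whether distal or proximal is higher. The other tested desmosome genes, not drawn, were not highest distally in both sets.

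Counted over the tested members, 13 of 36 (36.1%) had both distal libraries above both proximal ones, where 13.1% of all tested genes did, and 4 had them below, where 10.3% did. The 13 included CLDN1, CLDN8, CLDN16, JAM2, EPCAM, GJB6, DSG2, DSC2, PKP2, PKP3, KRT19 and KRT222, and the 4 were CLDN5, CLDN11, GJA4 and GJB1. Between distal and middle, 12 were above (12.1% of all tested genes) and 3 below (8.92%). Between middle and proximal, 6 were above (5.76%) and 1 below (4.82%), 11 were higher in both sets (20.8%) and 4 lower (14.6%), and 0 differed by a log2 of 1 in both sets (0.223% of genes higher, 0.446% lower). The share above was higher than the background in these pairs, and the share below lay nearer to it. DSC2, counted above in each pair, passed the filter through its distal and middle libraries alone. GJA5, counted lower in both sets between middle and proximal, passed through its middle and proximal libraries alone. The member median was 0.21 for distal against proximal, 0.07 for middle against proximal and 0.14 for distal against middle, where all tested genes had 0.10, 0.08 and 0.03. With the second-set proximal library left out, the members had 0.21 and all genes 0.33 for distal against proximal, so the order of the 2 medians turned.

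No member passed an adjusted p of 0.05 in limma in any pair of regions, with or without the replicate block. Over all 12559 genes, 0 passed without the block, and with it 31 were higher (0.247%) and 35 lower (0.279%) distally than proximally. At an unadjusted p under 0.05 for that pair without the block, 4 members were higher (CLDN8, DSG2, GJB6 and PKP2; 1.63% of all tested genes) and 1 lower (GJB1; 2.41%). With the block 10 were higher (7.12%) and 4 lower (7.59%). For distal against middle at that level, PKP2 was higher (0.581%) and 0 lower (1.09%) without the block, and with it PKP2 and DSG2 were higher (2.61%) and PANX1 lower (5.03%). For middle against proximal, CLDN8 was higher (0.263%) and 0 lower (0.621%) without the block, and with it CLDN8 and GJB6 were higher (1.85%) and 0 lower (2.01%). The limma F test over the 3 regions passed 0 members with the block, where 0.0717% of genes passed, and 9 at an unadjusted p under 0.05 (10.1%). DSC2 is among these 9 and among the 10 higher distally than proximally with the block, and GJA5 is among the 4 lower. DSC2 passed the filter through its distal and middle libraries alone, and GJA5 through its middle and proximal libraries alone.

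**Figure D5:**
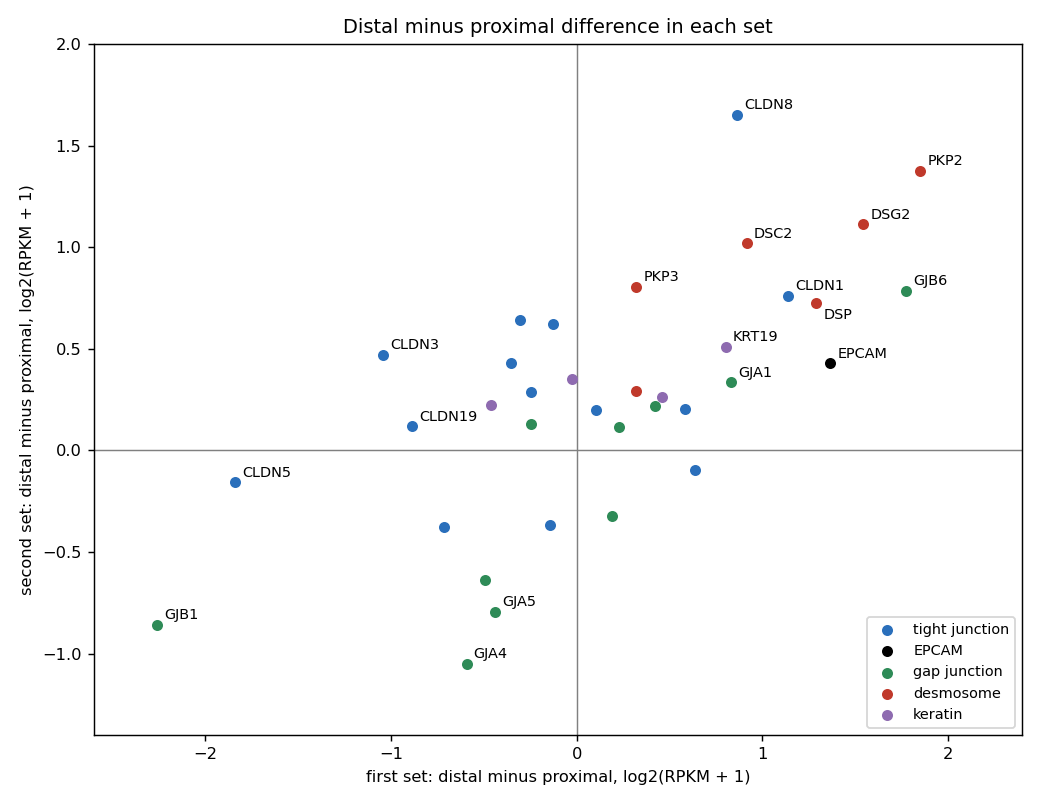
Distal minus proximal difference in log2(RPKM + 1) for the tested members, 1 of them not shown, with the first set on the horizontal and the second set on the vertical axis, coloured by family. The 6 desmosome genes all lie in the upper right part, GJB1, GJA4 and GJA5 lie at the lower left, and CLDN3 differs in sign between the sets (-1.04 and 0.47).

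The order distal, middle, proximal in both sets was found for 10 tested members, 4 of them desmosome genes (8.55% of all tested genes had it). The reverse order was found for GJA4, GJA5 and GJB1 (5.61%). GJA5 passed the filter through its middle and proximal libraries alone. DSC2, among the 10, passed through its distal and middle libraries alone, which limits what both genes add to these counts. The middle piece was highest in both sets for 0 members (6.6%) and lowest for CLDN3 (4.83%). For 16 members the difference between the sets exceeded the range of the region means, as it did for 61.7% of all tested genes. TJP1 had the largest such difference among genes higher in the second set (1.15), and CLDN3 the largest among those lower in it (-1.44).

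Other genes, none of them members, were counted by list. In a list of plakins, PERP and epithelial transcription and splicing factors, 9 of 10 tested genes were higher distally than proximally in both sets. In this list 0 were lower (33.3% and 24.7% of all tested genes were higher and lower). The epidermis markers EVPL, PERP, TP63 and GRHL3 summed above are in this list too, so its count is not separate from theirs. ELF5, an epithelial ETS factor, measured 71.3 and 51.8 RPKM in the distal, 30.7 and 21.2 in the middle and 10.4 and 10.4 in the proximal libraries. It was the 1 gene of the list that passed with the block, as 0.247% of all tested genes did in that direction (2.44 ± 0.22, limma adjusted p = 0.0334, and 0.375 without the block). EVPL, which encodes the plakin envoplakin and is also among the epidermis markers above, averaged 5.64 ± 1.87 RPKM in distal and 1.57 ± 0.961 in proximal pieces (SD, n = 2 each), a difference of 1.39 ± 0.23. ESRP2, an epithelial splicing regulator, had 1.18 ± 0.30.

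In a list of adherens junction, polarity and scaffold genes, 12 of 27 were higher and 3 lower in both sets, beside the same 33.3% and 24.7%, and 0 passed in limma. The smallest blocked p-values there belonged to the scaffold gene MAGI1 (-0.88 ± 0.23), the nectin gene PVRL1 (-0.71 ± 0.24) and the polarity gene LLGL2 (0.71 ± 0.25). Of 6 tested genes of potassium and fluid handling, 3 were higher and 2 lower in both sets, again beside 33.3% and 24.7%. The sodium pump subunit gene ATP1B1 measured 61.5 and 55.2 RPKM in the distal, 99.7 and 99.9 in the middle and 176 and 181 in the proximal libraries, and it fell by 1.60 ± 0.19 with the block, where 0.279% of all tested genes passed in that direction (limma adjusted p = 0.0442, and 0.686 without the block). KCNJ16, a potassium channel gene, had 0.93 ± 0.27.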

How the data were processed

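Messenger RNA was selected with oligo-dT beads and sequenced on an Illumina HiSeq instrument, per the labels' protocols, which name alternative library kits without saying which library used which. The RPKM values are those the authors deposited. TopHat 1.4.0 and Partek 6.6 are the tools named, per the submitters' processing notes. No source used here gives the build, the annotation or the use of strand, so positions are not printed and antisense reads cannot be separated. The row of alignment numbers was kept out of all tests.

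Values were transformed to log2(RPKM + 1). Genes at 1 RPKM or more in at least 2 of 6 libraries were tested with limma 3.58.1 in R 4.3.3 (region as factor, empirical Bayes with trend, two-sided, Benjamini-Hochberg over 12559 genes, threshold 0.05). This leaves 3 residual degrees of freedom, and 2 with the set added as a replicate block. The column names pair the libraries by set, and set differences correlated across genes at 0.655 to 0.885 between regions. SE values are from the blocked model. Exact permutation of 2 against 2 libraries cannot go below p = 0.333 and was not used. The script was tested on simulated data with reduced noise and planted changes larger than any member difference fitted to all 6 libraries. That test does not cover changes of the size found here.

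Members and lists were chosen with earlier results of these data known. By rule, values in every library are given for members that passed, had a log2 difference of at least 1 in both sets, were among the 3 highest of a family, or have a known role in hearing or vessels (GJB6, CLDN14, CLDN5). CLDN8, CLDN11, DSP, DSC2, PKP3, GJB1, GJA4, GJA5, PANX1 and TJP1 were added after their values were seen. Of the 52 names, 47 matched RefSeq symbols of GRCg7b and 4 matched synonyms (DSC2 matched neither). Some measured genes are counted but not reported here by name.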

Additional observations from a re-analysis of the deposited data

How the results depend on the processing

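No member was called in any of the alternatives except quantile normalization with the replicate block, where 2 (PKP2 and DSG2) were called between distal and proximal and 1 (PKP2) over any region. In that setting 257 genes were called between distal and proximal, 3 between middle and proximal and 65 over any region. With the replicate block alone the counts were 66 for distal against proximal and 9 over any region, and it changed no member's call. Leaving out 1 library, with the lone library of its region assumed to vary like the others, gave 0 to 3 genes between distal and proximal and 0 to 1 over any region.

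The member median for distal against proximal was 0.26 with a pseudocount of 0.1, 0.048 when every gene was kept and 0.15 after quantile normalization, with or without the block, and lay at 0.16 to 0.32 with 1 library left out. For middle against proximal it was 0.0091 under quantile normalization, with or without the block, and lay at 0.030 to 0.28 with 1 library left out. For distal against middle it lay at 0.052 to 0.22. The median of all tested genes lay at -0.086 to 0.33, -0.13 to 0.32 and -0.071 to 0.13 in the same 3 pairs with 1 library left out. Of 69 changes recomputed (23 members in 3 pairs of regions), 25 changed sign under some alternative. PKP2 between middle and proximal was -0.13 under quantile normalization, with or without the block, and -0.32 to 0.33 with 1 library left out. Leaving out 1 library gave -0.18 to 0.95 for DSG2 in the same pair. For distal against proximal it gave -0.13 to 0.74 for PKP4, -0.79 to 0.55 for KRT14, -1.48 to 0.91 for CLDN3 and -0.53 to 0.016 for JAM3. The cause of these shifts was not tested. The 2 libraries per region and the lower depth of the first set limit the precision of members near 1 RPKM.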
